A study of Mus musculus with 3 samples.

Results

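The matrix metalloproteases (MMPs), the ADAMTS proteases and the tissue inhibitors of metalloproteases (TIMPs) were followed across RNA libraries of skeletal mesenchyme from mouse embryos at E15.5. The members were all rows of the count tables whose symbol was Mmp with a number, Adamts with a number, or Timp1 to Timp4. There were 46 of 43280 rows: 23 MMPs, 19 ADAMTS proteases and 4 TIMPs. The rule used names alone and no measured value. The series describes the tissue as calvarial, that is, from the skull vault, and the samples as primary cells. The 3 libraries, 1 per genotype, differed at Ctnnb1, the gene of beta-catenin, a protein of cadherin junctions that also acts in the nucleus when Wnt signals arrive. The control library was beta-catenin fx/fx, with floxed alleles on both chromosomes and no Cre in its label. The library called cKO here was beta-catenin fx/fx with Dermo1-Cre, a Cre driven by the Twist2 (Dermo1) locus and thus active in mesenchyme. The library called dTF-cKO was beta-catenin fx/dm and carried Dermo1-Cre too. What dm stands for is not in the labels; as background, the known Ctnnb1 dm allele keeps adhesion and loses the transcriptional role. No fx/dm library without Cre was analysed, so carrying the dm allele and recombining the floxed one cannot be told apart. The labels do not say how many embryos gave each library.

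MMPs are zinc enzymes that are made as inactive precursors and cut collagens, gelatin, elastin and many other matrix and surface proteins. Some are secreted and some are held in the cell membrane, where they also activate other MMPs. ADAMTS proteases are secreted zinc enzymes with thrombospondin repeats; one branch cuts the large proteoglycans aggrecan and versican, and another trims the amino end of procollagens. TIMPs bind the active site of these enzymes. In the developing skeleton, Mmp13 is known from osteoblasts and hypertrophic cartilage, Mmp9 from osteoclasts, and Mmp2 and Mmp14 from mesenchyme and periosteum.

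The libraries held 2678457 to 3634819 counts, and 3 counts, used below in place of a count of 0, came to 0.839 (control), 1.06 (cKO) and 1.07 (dTF-cKO) CPM. CPM stands for counts per 1e6 of a library's TMM-scaled total. With 1 library per genotype there was no replicate check, no p-value was computed, and each comparison is between libraries; intervals are exact 95% intervals and cover counting error only. Ctnnb1, the targeted gene, gave 3669, 2106 and 1236 counts in the order control, cKO and dTF-cKO, which is the order of all triplets below. Its cKO level was 0.726 of the control level; the labels do not say which exons the floxed alleles lose. Cell type markers differed strongly between the libraries. The 20 osteoblast markers summed to 186697, 39602 and 8367 CPM, with Panx3, Mepe and Sost at 0 in the dTF-cKO. Most of that sum was type I collagen: Col1a1 and Col1a2 gave 114625 and 64364 CPM in the control. The 20 epidermis markers summed to 165, 28775 and 14759 CPM, and the 16 skeletal muscle markers to 2063, 319.8 and 16.4 CPM. The female transcript Xist had 1233, 0 and 2 counts, and 4 Y-linked genes summed to 0, 362 and 444. Sex-linked expression and genotype therefore differed together. In RNA pooled from many cells, fewer cells of a type and less RNA per cell cannot be told apart.

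Summed over each family, all 3 families were lower in the cKO than in the control, and on the TMM scale lower again in the dTF-cKO, an order that turns for the dTF-cKO relative to stroma markers, as given below. The MMPs summed to 1966 CPM in the control (interval 1920.5 to 2013), 1075 in the cKO (1037 to 1114) and 733 in the dTF-cKO (702 to 766). The ADAMTS proteases summed to 1178 CPM (1143 to 1214), 914 (879.5 to 950.4) and 343 (322 to 366). The TIMPs summed to 797 CPM (768 to 827), 529.9 (503 to 557) and 286 (266 to 306). The order of the families within each library, MMPs above ADAMTS proteases above TIMPs, was the same in the 3 libraries. The largest loss from control to cKO was that of the MMPs, at 1.83-fold (1.75 to 1.91), and the largest from cKO to dTF-cKO was that of the ADAMTS proteases, at 2.66-fold (2.47 to 2.87). Together the members took 0.388% of control counts, 0.266% of cKO counts and 0.131% of dTF-cKO counts.

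Members averaging 5 CPM or more across the libraries count as measured, 30 of the 46: 11 MMPs, 16 ADAMTS proteases and 3 TIMPs. Of these 30, Mmp12 passed through the dTF-cKO alone and therefore had to differ. Adamts8, Adamts18 and Mmp17 reached the floor only with their control levels of 16.8, 12.6 and 7.83 CPM. The floor thus favoured the lower calls of Adamts8 and Adamts18 given below. Of the 16 below the floor, 5 were at 0 in every library: Mmp1a, Mmp1b, Mmp20, Mmp21 and Mmp27. A member is called higher or lower here when its difference in log2 CPM was at least 1, a 2-fold difference.

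**Figure D1:**
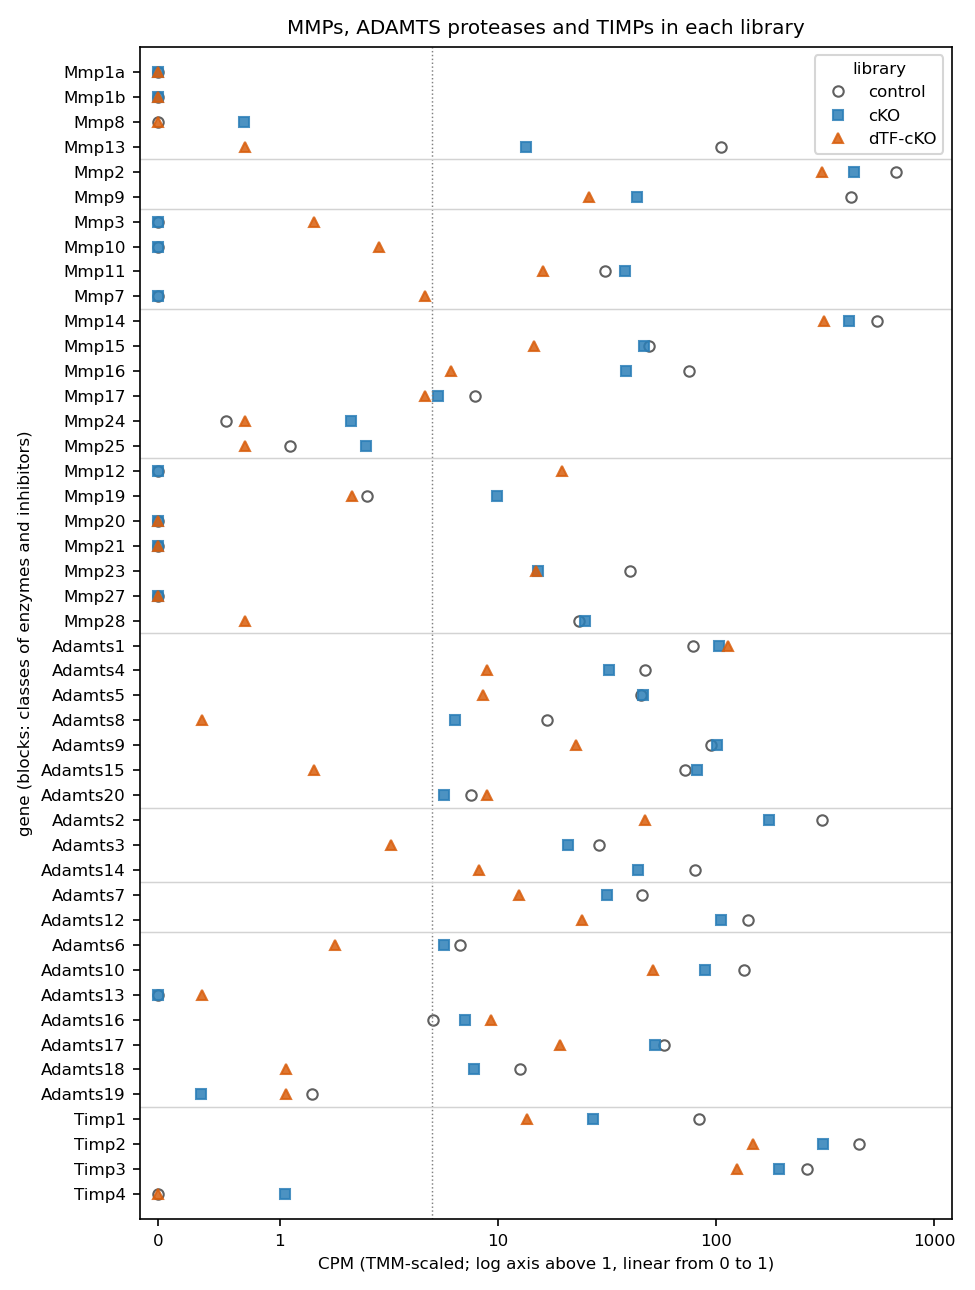
Level of each of the 46 members in TMM-scaled CPM (horizontal axis, logarithmic above 1 and linear below) in the control (open circles), cKO (squares) and dTF-cKO (triangles) libraries, 1 library each, with the floor of 5 CPM dotted. Mmp2 and Mmp14 are the most abundant by CPM in the 3 libraries, Mmp13 and Mmp9 fall away to the left in both Cre-carrying libraries, and Mmp12 stands at 0 in all but the dTF-cKO; CPM is not corrected for gene length.

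The first comparison, cKO against control, addresses the removal of beta-catenin from mesenchyme. Few members passed the 2-fold rule, but 22 of the 30 measured had a log2 difference below 0, as did 5511 of 12127 measured genes. Of the 30 measured members 5 were at least 2-fold lower and 0 higher: Mmp9, Mmp13, Timp1, Mmp23 and Adamts8. Among all 12127 measured genes 6.78% were lower by that rule and 9.66% higher. The members' median log2 difference was -0.49, and that of all measured genes 0.06. The second, dTF-cKO against control, addresses cells left with dm as their beta-catenin allele. There the loss was broad: 23 of 30 members were at least 2-fold lower and 1, Mmp12, higher, against 20.9% lower and 19.5% higher of all measured genes. The median was -1.92, against 0.06 for all genes. The 5 genes lower in the cKO were also lower in the dTF-cKO, but the 2 comparisons share the control library. On the TMM scale 21 of the 30 members stood in the order control above cKO above dTF-cKO, as did 23.4% of all measured genes. The third compares the Cre-carrying libraries, which differ by label in the second allele, floxed or dm. In the dTF-cKO 18 members were lower than in the cKO and Mmp12 was higher, against 20.5% and 14.5% of all genes; the median was -1.35, against 0.01.

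The size of the loss in the dTF-cKO rests on how the libraries are scaled. The 50 measured markers of dermis, meninges, vessel wall and endothelium, called stroma markers here, had a median log2 difference from the control of 0.35 (cKO) and -1.83 (dTF-cKO). The lists differed among themselves. In the dTF-cKO the median was -0.89 for dermis, -1.82 for meninges, -2.09 for vessel wall (smooth muscle and pericyte) and -1.86 for endothelium. When the median of all 50 is set to 0, the median of all genes moves to -0.29 (cKO) and 1.88 (dTF-cKO). Then 8 members were lower in the cKO, where Adamts2, Adamts14 and Mmp16 joined the 5 lower on the TMM scale. For the dTF-cKO 9 were then lower and 6 higher, the latter Adamts1, Adamts16, Adamts20, Mmp12, Mmp14 and Mmp17. The members' medians became -0.83 and -0.09. The summed MMPs, ADAMTS proteases and TIMPs of the dTF-cKO then lay at 0.40, 0.05 and 0.35 on the log2 scale from the control, an alternative added after the values were seen. Relative to the stroma markers the members were thus lower in the cKO, while in the dTF-cKO those higher and lower nearly balanced. That balance rests on the pooled median, which lay well below that of the dermis markers, and a scaling on dermis alone was not tried. The genes called under each of the scalings tried were the 5 of the cKO comparison and 10 of the 24 in the dTF-cKO: Mmp13, Mmp9, Mmp16, Mmp28, Adamts3, Adamts8, Adamts14, Adamts15, Adamts18 and, higher, Mmp12.

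**Figure D2:**
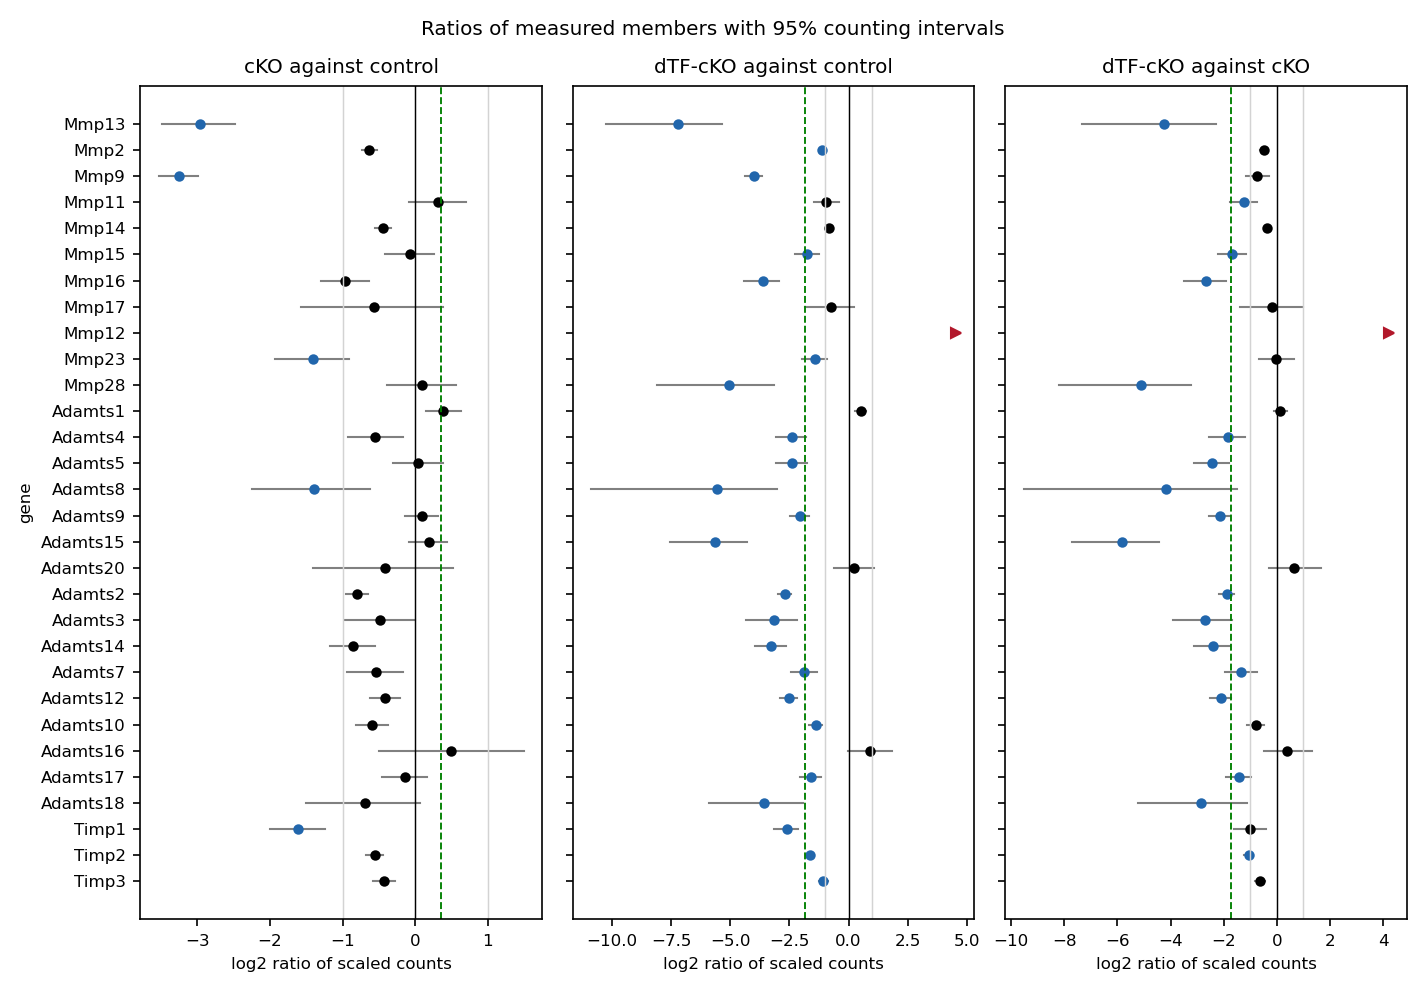
Log2 ratio of scaled counts (horizontal axis) of each measured member in the 3 comparisons, with 95% counting intervals as grey bars. Blue and red points are at least 2-fold lower and higher by log2 CPM, and black points neither. The red arrow is the fold of Mmp12 with 3 counts in place of 0, and Mmp12 has no ratio in the first panel. The green dashed line is the median of the 50 stroma markers by log2 CPM, 0.35, -1.83 and -1.73: most members lie left of it in the cKO, and on both sides of it in the dTF-cKO.

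A run of 10 MMP genes lies on chromosome 9 within 427 kb, and its members went opposite ways in the dTF-cKO. The cluster runs from 7272514 to 7699585 of mm10 in the order Mmp13, Mmp12, Mmp1b, Mmp3, Mmp1a, Mmp10, Mmp8, Mmp27, Mmp20 and Mmp7. Mmp13, a collagenase of bone and hypertrophic cartilage, had 376, 38 and 2 counts. Mmp12, the macrophage elastase, had 0, 0 and 55 counts. Mmp7, matrilysin, a small secreted MMP of epithelia, had 0, 0 and 13. Mmp10 and Mmp3, the stromelysins, which cut many matrix proteins and activate other MMPs, had 8 and 4 counts in the dTF-cKO and 0 in the other libraries. So 4 neighbours of Mmp13 were detected in the library in which Mmp13 was nearly gone, with 80 counts in all. Mmp8, a neutrophil collagenase, had 2 counts in the cKO alone.

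The upstream sequences of the 5 genes with counts in the dTF-cKO show a feature that most of the cluster shares. They are shown for that reason, and were chosen after the counts were seen. Each line gives the 250 bases before the start of a gene, plus strand of GRCm38.p6, from RefSeq, at chr9:7272264-7272513 for Mmp13, chr9:7347124-7347373 for Mmp12, chr9:7445572-7445821 for Mmp3, chr9:7502092-7502341 for Mmp10 and chr9:7691840-7692089 for Mmp7. Capitals mark matches to the AP-1 motif TGANTCA and to TATAAA, the letters of a TATA box, at any distance from the start.
Mmp13: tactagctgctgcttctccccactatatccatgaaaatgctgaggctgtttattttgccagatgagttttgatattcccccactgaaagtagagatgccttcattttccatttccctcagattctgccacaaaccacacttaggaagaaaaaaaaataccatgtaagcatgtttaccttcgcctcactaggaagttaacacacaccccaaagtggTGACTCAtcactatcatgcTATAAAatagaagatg
Mmp12: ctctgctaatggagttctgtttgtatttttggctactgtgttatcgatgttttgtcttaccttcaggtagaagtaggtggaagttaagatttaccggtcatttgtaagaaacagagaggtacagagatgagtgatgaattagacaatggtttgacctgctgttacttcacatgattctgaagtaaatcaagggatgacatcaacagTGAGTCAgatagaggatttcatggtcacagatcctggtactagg
Mmp3: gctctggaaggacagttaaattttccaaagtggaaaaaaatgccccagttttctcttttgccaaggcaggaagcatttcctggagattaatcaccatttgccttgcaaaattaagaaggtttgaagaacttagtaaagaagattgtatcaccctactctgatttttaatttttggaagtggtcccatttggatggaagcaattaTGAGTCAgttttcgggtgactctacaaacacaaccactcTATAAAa
Mmp10: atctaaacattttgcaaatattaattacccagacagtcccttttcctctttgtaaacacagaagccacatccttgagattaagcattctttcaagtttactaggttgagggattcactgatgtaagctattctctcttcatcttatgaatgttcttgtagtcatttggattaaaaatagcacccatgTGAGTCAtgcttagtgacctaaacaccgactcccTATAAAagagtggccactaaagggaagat
Mmp7: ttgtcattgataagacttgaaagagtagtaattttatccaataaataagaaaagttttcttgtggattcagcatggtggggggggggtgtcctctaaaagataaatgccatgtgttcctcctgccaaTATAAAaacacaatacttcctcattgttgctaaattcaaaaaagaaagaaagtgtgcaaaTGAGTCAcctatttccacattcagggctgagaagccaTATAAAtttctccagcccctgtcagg
Each of the 5 windows held 1 match to TGANTCA, which reads the same on both strands with N as any base. Its first base lay 35 bases before the start in Mmp13, 44 in Mmp12, 46 in Mmp3 and 63 in both Mmp10 and Mmp7. The motif was found in 6.75% of 32841 RefSeq windows of the same length. RefSeq windows were matched for 32 of the 46 members. The 8 with a match were all among the 10 genes of the cluster, where Mmp8 and Mmp27 had none, and 0 of the other 22 had one. Mmp1a, Mmp1b and Mmp20 held the motif and had 0 counts in every library, so the motif alone did not go with detection. TATAAA on either strand was found in 9 of the 32 windows and in 12.4% of all windows. The TCF/LEF motif CTTTGAT was found on neither strand in any of the 32, and in 3.21% of all. The RUNX motif TGTGGT, searched on both strands, was found in 5 of the 32, Mmp13 among them, and in 14% of all. A match is a run of letters, not a shown binding site.

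**Figure D3:**
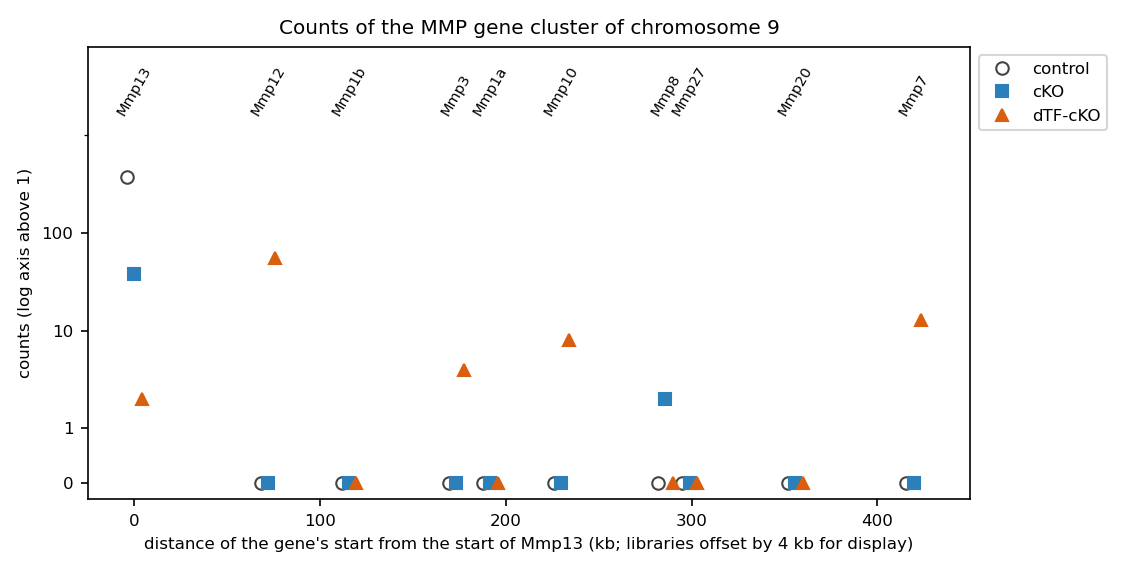
Counts (vertical axis, logarithmic above 1) of the 10 MMP genes of the chromosome 9 cluster in each library, placed by the distance of the gene's start from the start of Mmp13 in kb (horizontal axis). Mmp13 falls from 376 to 38 to 2 counts, whereas Mmp12, Mmp3, Mmp10 and Mmp7 have counts in the dTF-cKO library only.

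Of all 43280 rows 3.23% were at 0 in the control and cKO and had a count in the dTF-cKO, and 5 of the 46 members were: these 4 and Adamts13, the protease of von Willebrand factor, with 1 count. Mmp12 stood at 19.7 CPM in the dTF-cKO, which was 23.4-fold above the control and 18.5-fold above the cKO when 3 counts per library stand for 0. By the same rule Mmp7 was 5.54-fold higher than the control and Mmp10 3.41-fold. These folds leave out the counting error of the dTF-cKO counts and are not interval limits. Mmp12 and Mmp1b, the latter without a count, overlap on opposite strands over 157 bases of exon, and the strand setting of the counts is not given in the sources used here. Of 16 macrophage markers 2 were higher and 6 lower in the dTF-cKO by the 2-fold rule. Their summed level was 422, 729 and 359 CPM, and none was at 0. Cd68, chosen after its value was seen, had 83, 45 and 231 counts. Of 19 measured epidermis markers 4 were higher and 8 lower in the dTF-cKO when set against the cKO, with a median of -0.27; Krt17, a keratin of hair and stressed epidermis, had 16, 103 and 3967 counts, and Epcam, an epithelial adhesion gene, 52, 47 and 501, both chosen after their values were seen. The part of either cell type in the 4 genes was not tested.

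The collagenase and the gelatinases carried most of the MMP loss in the cKO. Mmp13 stood at 105, 13.4 and 0.715 CPM. Against the control it was 7.82-fold lower in the cKO (5.596 to 11.2) and 147-fold lower in the dTF-cKO (40.5 to 1219.8). The dTF-cKO was also 18.8-fold below the cKO (4.86 to 161). Of 12127 genes, Mmp13 ranked 26 (cKO) and 21 (dTF-cKO) from the lowest. The osteoblast markers were lower as well: 17 (cKO) and 16 (dTF-cKO) of 18 measured passed the 2-fold rule downward, with medians of -2.03 and -4.51. Col10a1, the collagen of hypertrophic cartilage, had 9, 20 and 0 counts, below the floor. Of 16 measured chondrocyte markers 9 were higher and 2 lower in the cKO. Ihh, among the lower, had 57, 7 and 0 counts and was 6.44-fold lower in the cKO (2.93 to 16.7). The part of either cell type in the loss of Mmp13 was not tested. Per 100 counts of Ibsp, a mineral-binding bone protein, Mmp13 had 2.98 counts in the control (2.68 to 3.2997) and 4.29 in the cKO (3.02 to 5.94). These intervals overlap. In the dTF-cKO Ibsp had only 5 counts and the ratio is too uncertain to read. Ibsp and the other partners of ratios within a library were chosen after the values were seen.

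Mmp9, gelatinase B, which osteoclasts use to open a path through matrix, had 1488, 123 and 73 counts. Its gene spans 164940780 to 164955850 of chromosome 2, plus strand. It was 9.57-fold lower in the cKO (7.95 to 11.6) and 15.96-fold lower in the dTF-cKO (12.6 to 20.5), each against the control. Both Cre-carrying libraries were far below the control and within 1.67-fold of each other (1.24 to 2.26) on the TMM scale; relative to the stroma markers the dTF-cKO was at least 2-fold above the cKO. Of 7 measured osteoclast markers, 4 (cKO) and 5 (dTF-cKO) were lower, with medians of -1.38 and -1.97. The 12 markers summed to 713, 281 and 180.4 CPM, and Ocstamp and Oscar, genes of the fused osteoclast, were at 0 in both Cre-carrying libraries. Single markers differed widely: Atp6v0d2, a proton pump subunit, had 92, 2 and 17 counts, 36.4-fold lower in the cKO, Dcstamp, a fusion gene, had 22, 1 and 1, and Clcn7, a broadly expressed chloride transporter, 141, 143 and 137. The loss of Mmp9 thus exceeded that of the list's sum, of which Ctsk gave 1286 of 2550 control counts, and not that of every marker. Per 100 counts of the osteoclast list it had 58.4 counts in the control (54.7 to 62.2) and 14.5 in the dTF-cKO (11.2 to 18.5), and the cKO, with 123 against 795 counts, lay at 12.7 to 18.7. This ratio does not depend on the scaling between libraries. The part of osteoclasts in the loss was not tested.

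Mmp2, gelatinase A, was the most abundant MMP in the control and cKO by counts, with 2380, 1215 and 854 counts, or 666, 429.8 and 305 CPM. Its gene spans 92827291 to 92853420 of chromosome 8, plus strand. It was 1.55-fold lower in the cKO (1.44 to 1.66) and 2.18-fold lower in the dTF-cKO (2.02 to 2.36). Relative to the stroma markers its log2 difference in the dTF-cKO was 0.70, so the direction turns with the scaling. Per kilobase of exon Mmp2 was the highest of the MMPs, at 197, 127 and 90.5 CPM per kb, followed in the control by Mmp9 at 118 and Mmp14 at 91.9. Per kilobase of the longest transcript Mmp2 stayed highest in the control, at 216, but Mmp14 at 169 stood above Mmp9 at 131.

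Beside the loss of Mmp9 and Mmp13, Mmp2 and Mmp14 took larger shares of MMP counts. Mmp9 made up 21.2% of MMP counts in the control (20.2% to 22.1%), 4.05% in the cKO (3.37% to 4.81%) and 3.56% in the dTF-cKO (2.799% to 4.45%). Mmp13 made up 5.35%, 1.25% and 0.0975%. Mmp2 made up 33.9%, 39.98% and 41.6%, and Mmp14 went from 27.9% of MMP counts (26.8% to 28.9%) to 37.6% (35.9% to 39.3%) and 42.5% (40.4% to 44.7%). Without Mmp9 and Mmp13, chosen after their values were seen, the summed MMPs were 1.42-fold lower in the cKO (1.36 to 1.49) and 2.05-fold lower in the dTF-cKO (1.94 to 2.16), in place of 1.83-fold and 2.68-fold.

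**Figure D4:**
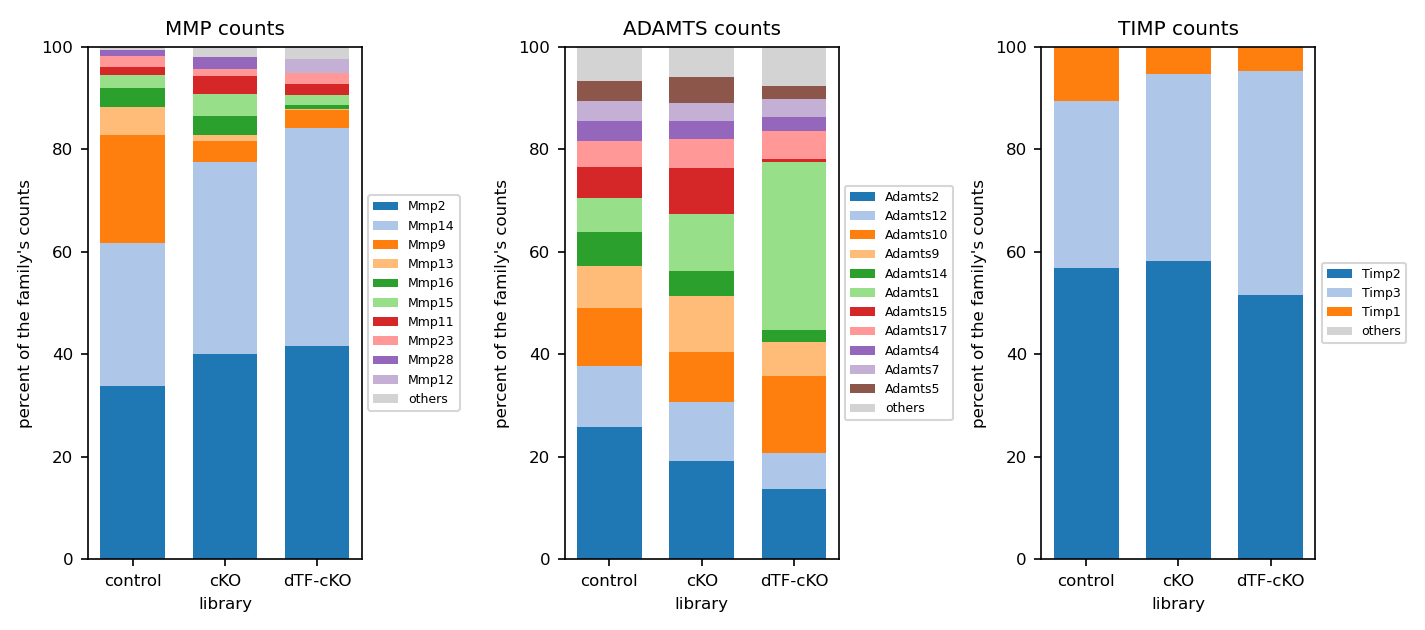
Percent of each family's counts (vertical axis, stacked from 0 to 100) taken by its members in the 3 libraries, 1 library per bar, which needs no scaling between libraries. Mmp9 shrinks from 21.2% to 4.05% and 3.56% of MMP counts, Adamts1 grows from 6.67% to 11.3% and 32.9% of ADAMTS counts, and Timp1 shrinks from 10.5% to 5.14% and 4.75% of TIMP counts.

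The membrane-type MMPs sit on the cell surface, and none was 2-fold lower in the cKO on the TMM scale. Mmp14, which cuts fibrillar collagen at the cell surface and activates Mmp2, had 1959, 1142 and 873 counts. It was 1.36-fold lower in the cKO (1.26 to 1.46) and 1.76-fold lower in the dTF-cKO (1.62 to 1.905), the mildest change of the abundant MMPs on the TMM scale. Its direction in the dTF-cKO turns relative to the stroma markers, to 1.01. Mmp16, a relative of Mmp14, had 269, 109 and 17 counts. Its ratio was 1.95-fold lower in the cKO (1.56 to 2.46), just under the threshold, and 12.4-fold lower in the dTF-cKO (7.59 to 21.6). Relative to the stroma markers Mmp16 lay at -1.30 (cKO) and -1.67 (dTF-cKO), past the 2-fold rule in both. Mmp15 had 176, 132 and 41 counts, 1.05-fold lower in the cKO with an interval that includes no change (0.837 to 1.33), and 3.36-fold lower in the dTF-cKO (2.38 to 4.84). Mmp15 was thus 2-fold lower in the dTF-cKO and not in the cKO, and its dTF-cKO direction turns relative to the stroma markers, to 0.12. Mmp17, which is held by a lipid anchor, had 28, 15 and 13 counts, too few for its intervals to leave out 1 on the TMM scale; relative to the stroma markers it lay at 1.15 in the dTF-cKO. Mmp24 and Mmp25 stayed below the floor, with at most 6 and 7 counts, and no difference was detectable at this depth.

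The remaining MMPs each had a pattern of their own. Mmp28, epilysin, first known from skin and testis, had 84, 71 and 2 counts: the cKO did not differ from the control beyond counting error (ratio 1.07, 0.768 to 1.48), and the dTF-cKO was 32.9-fold lower (8.82 to 276). Mmp23, a small MMP held in the membrane by its precursor end, had 144, 43 and 42 counts, which is 2.65-fold lower in the cKO (1.87 to 3.81) and 2.68-fold lower in the dTF-cKO (1.89 to 3.88). The Cre-carrying libraries did not differ in Mmp23 beyond counting error, with a ratio of 0.987 (0.629 to 1.55) on the TMM scale. Set against the stroma markers, Mmp23 in the dTF-cKO turned to 0.44 from the control and lay at 1.71 from the cKO. Mmp11, stromelysin 3, an MMP of remodelling stroma, had 110, 108 and 45 counts and was 2.38-fold lower in the dTF-cKO when set against the cKO (1.66 to 3.44). Relative to the stroma markers that difference became 0.52 on the log2 scale, the other direction. Chchd10, on the opposite strand, shares 155 bases of exon with Mmp11 and had 24, 16 and 98 counts. Mmp19, a secreted MMP of many tissues, had 9, 28 and 6 counts, below the floor, and the cKO had 3.93 times the control level (1.805 to 9.48). Tmem198b, which shares 789 bases of exon with Mmp19 on the opposite strand, had 94, 74 and 15 counts, so reads of the 2 genes may not be separated.

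Among the ADAMTS proteases that cut proteoglycans, 1 of 7 was lower in the cKO and 5 of 7 in the dTF-cKO, beside 6.78% and 20.9% of all measured genes. With the stroma median at 0, 2 of the 7 were lower in the dTF-cKO, Adamts8 and Adamts15, and 2 higher, Adamts1 and Adamts20. Adamts15 had 256, 230 and 4 counts. The control and cKO overlap within counting error (ratio 1.14, 0.947 to 1.36), and the dTF-cKO was 50.1-fold lower than the control (19.3 to 185) and 56.9-fold lower than the cKO (21.9 to 211). Adamts8, its neighbour 20.1 kb away on chromosome 9, had 60, 18 and 1 counts, already 2.64-fold lower in the cKO (1.54 to 4.74) and 46.97-fold lower in the dTF-cKO (8.11 to 1886). The pair shared the loss in the dTF-cKO and not the pattern in the cKO.

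Adamts5 and Adamts4, the aggrecanases best known from cartilage, and Adamts9, an enzyme that cuts versican, were lower in the dTF-cKO by less than Adamts15. Adamts5 had 161, 131 and 24 counts, with a ratio of 1.03 in the cKO (0.811 to 1.304) and a 5.25-fold lower level in the dTF-cKO (3.41 to 8.44). Adamts9 had 338, 285 and 64 counts, with a ratio of 1.07 in the cKO (0.908 to 1.25) and a 4.13-fold lower level in the dTF-cKO (3.16 to 5.49). Adamts4 had 168, 91 and 25 counts and was 1.46-fold lower in the cKO (1.12 to 1.91) and 5.26-fold lower in the dTF-cKO (3.44 to 8.36). On the stroma scale Adamts4, Adamts5 and Adamts9 lay at -0.49, -0.48 and -0.19 in the dTF-cKO, short of 2-fold.

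Adamts1, which also cuts versican and lies 53.1 kb from Adamts5 on chromosome 16, was not lower on either scale. It had 281, 292 and 316 counts. Its ratio to the control was 1.31 in the cKO (1.11 to 1.55) and 1.44 in the dTF-cKO (1.22 to 1.69), both short of 2-fold. Relative to the stroma markers its log2 difference in the dTF-cKO was 2.35, which passes the 2-fold rule upward. Per 100 counts of Adamts5 it had 175 in the control (143 to 213), 223 in the cKO (181 to 276) and 1317 in the dTF-cKO (869 to 2086). These neighbours therefore parted in the dTF-cKO whatever the scaling. Adamts20, an enzyme of skin and pigment cell migration, had 27, 16 and 25 counts and did not differ beyond counting error in any comparison on the TMM scale; relative to the stroma markers it lay at 2.05 in the dTF-cKO. Against the summed counts of their substrates Acan and Vcan, the 7 enzymes had 55.8 counts per 100 in the control (52.1 to 59.7), 54.04 in the cKO (50.1 to 58.3) and 179 in the dTF-cKO (153 to 209). Adamts1 gave 316 of the 459 enzyme counts in the dTF-cKO. Without it, an alternative chosen after the values were seen, the ratios were 43.6 (40.5 to 47), 39.2 (36 to 42.6) and 55.6 (45 to 68.5). Chondrocyte markers, Acan among them, summed to 4087, 4407 and 759.6 CPM; of 16 measured, 9 were higher and 2 lower in the cKO, and 9 lower in the dTF-cKO. The part of cartilage in the values of these enzymes was not tested.

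The procollagen N-proteinases, which trim fibrillar procollagens so that fibrils can form, were lower together with type I collagen, and by less. Adamts2, the most abundant ADAMTS gene in the control and cKO by counts, had 1089, 494 and 132. It was 1.74-fold lower in the cKO (1.57 to 1.94) and 6.46-fold lower in the dTF-cKO (5.39 to 7.797). Adamts14 had 285, 124 and 23 counts, 1.82-fold lower (1.47 to 2.26) and 9.701-fold lower (6.34 to 15.6). Adamts3 had 104, 59 and 9 counts, 1.39-fold lower (1.003 to 1.95) and 9.05-fold lower (4.59 to 20.3). All 3 thus passed the 2-fold rule in the dTF-cKO and none in the cKO on the TMM scale. Relative to the stroma markers Adamts2, Adamts14 and Adamts3 lay at -1.15, -1.20 and -0.81 in the cKO. In the dTF-cKO they lay at -0.85, -1.35 and -1.12, so on that scale Adamts2 was 2-fold lower in the cKO only. Col1a1, a chain of type I collagen, had 409783, 64161 and 14705 counts, a ratio to the control of 0.198 (cKO) and 0.0458 (dTF-cKO). Per 1000 counts of Col1a1 and Col1a2 the 3 enzymes had 2.31 counts in the control (2.19 to 2.43), 6.25 in the cKO (5.79 to 6.74) and 7.37 in the dTF-cKO (6.28 to 8.59).

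The other ADAMTS genes were mostly lower in the dTF-cKO. Adamts12, which with Adamts7 cuts the cartilage protein COMP, had 500, 297 and 68 counts, 1.33-fold lower in the cKO (1.15 to 1.54) and 5.76-fold lower in the dTF-cKO (4.46 to 7.53). Adamts7 had 164, 89 and 35 counts, 1.46-fold lower (1.12 to 1.91) and 3.67-fold lower (2.53 to 5.45). Tbc1d2b shares 122 bases of exon with Adamts7 on the opposite strand and had 428, 291 and 179 counts. Adamts10, an enzyme of fibrillin microfibrils, had 480, 252 and 143 counts, 1.51-fold lower (1.29 to 1.76) and 2.63-fold lower (2.18 to 3.19). For these genes the cKO stood between the other libraries. Adamts17, a relative of Adamts10 and Adamts19, had 207, 148 and 54 counts, with a ratio of 0.904 in the cKO (0.727 to 1.12) and a 3.001-fold lower level in the dTF-cKO (2.21 to 4.13). Relative to the stroma markers Adamts7, Adamts10 and Adamts17 were not lower in the dTF-cKO, at 0.00, 0.44 and 0.27, and Adamts12 lay at -0.67, short of 2-fold. Adamts18 had 45, 22 and 3 counts and was 11.7-fold lower in the dTF-cKO (3.77 to 59.1). Adamts16 had 18, 20 and 26 counts and did not differ beyond counting error on the TMM scale; relative to the stroma markers it was at least 2-fold higher in the dTF-cKO. Of the genes below the floor, Adamts6 had 24, 16 and 5 counts and was 3.76-fold below the control in the dTF-cKO (1.41 to 12.6), and Adamts19 had at most 5 counts.

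Among the inhibitors, Timp1 behaved apart from Timp2 and Timp3. Timp1, a secreted inhibitor whose gene lies on the X chromosome from 20870166 to 20874735, had 298, 77 and 38 counts. It was 3.06-fold lower in the cKO (2.37 to 3.98) and 6.14-fold lower in the dTF-cKO (4.37 to 8.85). The libraries also differed in sex-linked expression, as given above, and its part in the Timp1 values was not tested. Timp2, which also helps Mmp14 to activate Mmp2, had 1621, 871 and 413 counts, 1.47-fold lower in the cKO (1.35 to 1.5998) and 3.07-fold lower in the dTF-cKO (2.76 to 3.43). Timp3, the inhibitor that stays bound to matrix and also blocks aggrecanases, had 931, 547 and 349 counts, 1.35-fold (1.21 to 1.498) and 2.09-fold lower (1.84 to 2.37). Timp1 kept its direction under each scaling tried, but in the dTF-cKO it came to -0.74 relative to the stroma markers, short of 2-fold, whereas Timp2 and Timp3 in the dTF-cKO turned to 0.21 and 0.77 relative to the stroma markers. Timp3 lies within Syn3, a neuronal gene on the opposite strand, which had at most 4 counts. Timp4 had 3 counts in the cKO and 0 in the other libraries.

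With all MMPs counted, the balance of inhibitor to MMP transcripts differed little between control and dTF-cKO and was higher in the cKO. There were 0.405 TIMP counts per MMP count in the control (0.388 to 0.424), 0.493 in the cKO (0.463 to 0.525) and 0.3899 in the dTF-cKO (0.359 to 0.423). The cKO ratio was above the control's, and the intervals of the control and dTF-cKO overlap. This pattern rests on Mmp9 and Mmp13. Without them, the summed MMPs were 1.42-fold lower in the cKO (1.36 to 1.49) and the TIMPs 1.504-fold (1.41 to 1.603). In the dTF-cKO the folds were 2.05 (1.94 to 2.16) and 2.79 (2.58 to 3.02). Without these genes the cKO balance was thus not above the control's, and that of the dTF-cKO was below it. Within the set of genes that activates Mmp2, Timp2 had 82.7 counts per 100 of Mmp14 in the control (77.4 to 88.4), 76.3 in the cKO (69.8 to 83.4) and 47.3 in the dTF-cKO (41.98 to 53.2). Mmp2 had 121 per 100 of Mmp14 in the control (114 to 129), 106 in the cKO (98.1 to 115) and 97.8 in the dTF-cKO (88.9 to 108). Mmp2 and Mmp14 thus moved nearly together, and Timp2 fell behind Mmp14 in the dTF-cKO.

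**Figure D5:**
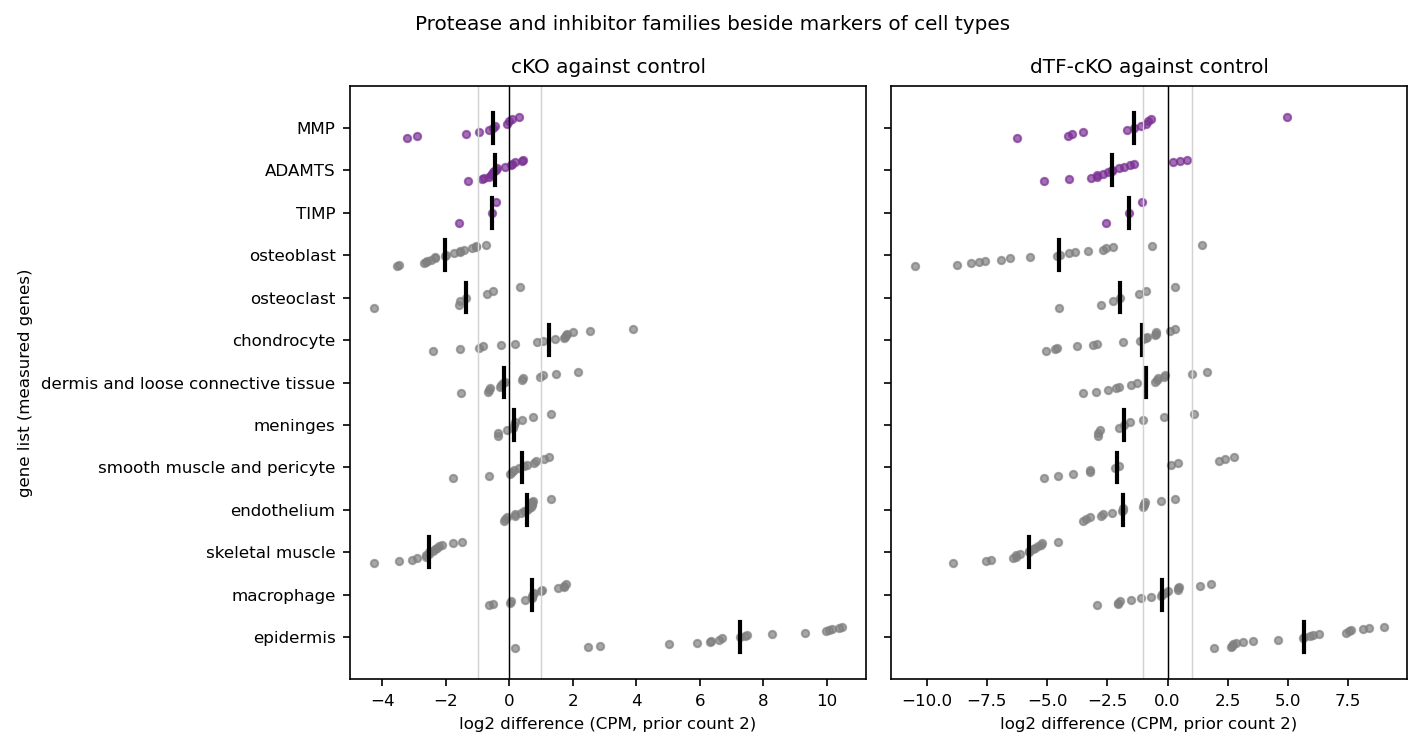
Log2 differences in CPM from the control (horizontal axes; prior count 2) of measured genes in the cKO and the dTF-cKO, for the MMPs, ADAMTS proteases and TIMPs (purple) and for marker lists of cell types (grey), with the median of each list as a black bar. In the cKO the family medians, -0.51, -0.44 and -0.56, lie between those of the osteoblast markers at -2.03 and the dermis markers at -0.17, and in the dTF-cKO the ADAMTS median of -2.31 lies near the smooth muscle and pericyte median of -2.09.

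Genes that work with these enzymes were taken from lists chosen for their known roles. Their counts stand beside 9.66% higher and 6.78% lower of all measured genes in the cKO, and 19.5% and 20.9% in the dTF-cKO. Of 10 measured activating proteases and plasminogen genes 1 was higher and 1 lower in the cKO, and 3 were higher and 2 lower in the dTF-cKO (medians -0.34 and 0.17), shares near those of all genes. Plau, urokinase, which starts the plasmin cascade that activates MMPs, had 63, 78 and 254 counts and was 5.15-fold higher in the dTF-cKO (3.89 to 6.899). St14, matriptase, a protease of epithelia, had 30, 118 and 645 counts. Pcsk6, a convertase that removes precursor ends, had 1127, 427 and 59 counts, and its relative Pcsk5 250, 112 and 54. So on the TMM scale these convertases were lower and the urokinase and matriptase genes higher in the dTF-cKO. Of 19 measured epidermis markers, 18 (cKO) and 19 (dTF-cKO) were at least 2-fold higher than in the control. Their list summed highest in the cKO, at 28775 CPM against 14759 in the dTF-cKO, whereas Plau and St14 were highest in the dTF-cKO. The part of epidermis in these values was not tested. The difference of Pcsk5, -1.82, was that of the stroma markers, whose median was -1.83.

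Of 10 other inhibitors and surface regulators 2 were lower and 1 higher in the cKO, and 5 lower and 1 higher in the dTF-cKO (medians -0.39 and -0.94). Reck, a membrane-anchored MMP inhibitor, had 455, 268 and 56 counts, a ratio of 0.157 in the dTF-cKO (0.117 to 0.208). Pcolce, which speeds removal of the carboxyl end of procollagen, had 3187, 993 and 543 counts. The matrix proteoglycan genes Spock1 and Spock2 had 48, 15 and 0, and 306, 176 and 75 counts. All 4 were lower in the dTF-cKO on the TMM scale; the difference of Spock2, -1.65, was smaller than the stroma median of -1.83.

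Of 18 measured ADAM, ADAMTS-like and astacin relatives 1 was higher and 0 lower in the cKO, and 3 were higher and 8 lower in the dTF-cKO (medians -0.07 and -0.83). Adam12, a surface protease of mesenchyme and muscle precursors, had 524, 234 and 21 counts. Thsd4, an ADAMTS-like microfibril protein, had 481, 257 and 31, and Tll1, a procollagen C-proteinase, 28, 34 and 0. Adam8, a surface protease of myeloid and other cells, went the other way with 21, 15 and 181 counts, 11.01-fold higher in the dTF-cKO (6.99 to 18.2). Of 13 cysteine, serine and other matrix-degrading enzymes 2 were lower and 1 higher in the cKO and 3 each way in the dTF-cKO. Ctsk, the collagenase of osteoclasts, had 1286, 335 and 147 counts. Ctsl, a lysosomal protease, had 463, 380 and 1209 counts, 3.34-fold higher in the dTF-cKO (2.99 to 3.72). Fap, a serine protease of activated fibroblasts, had 263, 100 and 36 counts, and Htra3, a secreted serine protease, 451, 200 and 43.

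Of 17 measured substrate genes 4 were higher and 3 lower in the cKO, and 13 were lower and 0 higher in the dTF-cKO (medians -0.19 and -2.27). Acan, aggrecan, had 533, 772 and 11 counts. Besides Col1a1, Col1a2 had 230100, 44103 and 7552 counts, and Col5a1, a chain that seeds fibrils, 11776, 4741 and 1341. Of 16 transcription factors known to act on MMP genes 4 were higher and 1 lower in the cKO, and 7 were higher and 2 lower in the dTF-cKO (medians 0.28 and 0.69). Within that list the 7 AP-1 genes, singled out after the motif counts were seen, included 3 (cKO) and 6 (dTF-cKO) that were higher, with 0 lower in either, beside 9.66% and 19.5% of all measured genes higher. Between the Cre-carrying libraries 4 were higher in the dTF-cKO and 1 lower. Fosl1 had 1, 0 and 93 counts, Fos 45, 247 and 657, Junb 50, 146 and 606, and Fosb 3, 32 and 13. Fosl1, like Mmp12, Mmp7, Mmp10 and Mmp3, had next to no counts outside the dTF-cKO; whether these values are linked was not tested.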

How the data were processed

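PolyA RNA was taken up with an RNeasy Mini Plus kit and made into libraries for Ion sequencing, per the labels' protocols. The authors deposited whole-number read counts per gene symbol, per the file headers, without normalisation. mm10 is the build named in the submitters' processing notes; the strandedness, aligner, counter and gene models were not given in the sources used here. Totals were 3634819, 2678457 and 2905264 counts. Amplified reads carry no molecular identifiers and are not independent molecules; every interval covers counting error alone.

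Counts were scaled with TMM factors (0.984, 1.055 and 0.963) in edgeR 4.0.16 under R 4.3.3. Log2 CPM used a prior count of 2. Folds are scaled-count ratios that leave out the prior, with exact conditional (Clopper-Pearson) 95% intervals, and shares and ratios within a library have exact binomial intervals. A fold against a library at 0 put 3 counts in place of the 0. Such a fold was given without an interval and is not a lower limit. Positions, exon lengths and overlaps came from GENCODE M21 (GRCm38). In simulated data with 200 altered genes among 12133, 44.0% of 2-fold and 98.0% of 4-fold differences of the cKO comparison were called. The simulation drew counting error alone around a profile shared by the libraries. These rates therefore leave out variation between embryos and shifts in cell make-up. Alternatives were other scalings (library totals, DESeq2 1.42.0 size factors, totals without the 20 most abundant genes, totals without epidermis, muscle, osteoblast, keratin and globin genes, and the stroma scaling), prior counts of 0.5 and 10, other floors and size rules, and transcript length. The members and lists were chosen with earlier results of these data known. Every member above the floor is named, with those below it at 10 counts or more. From each list of partner genes up to 4 with the largest difference and a counting interval that excludes 1 were named.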

Additional observations from a re-analysis of the deposited data

How the results depend on the processing

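No paired analysis was possible because there was 1 library per genotype, and none could be left out. In the cKO comparison the 5 lower members kept their call under each scaling and prior count; all members counted, they became 8 with the stroma scaling (median -0.83), 11 at 1.5-fold and 3 at 3-fold, and 4 were higher with no floor. In the dTF-cKO against the control, the stroma scaling gave 9 lower and 6 higher (median -0.09). The count of higher members was 4 with no floor, 0 at a floor of 20 CPM and 2 at 1.5-fold. Against the cKO, that scaling gave 4 lower and 10 higher and turned the median to 0.38; higher members numbered 4, 0 and 2 under the same 3 settings. It turned 8 calls against the control: Adamts10 (0.44), Adamts17 (0.27), Adamts7 (0.00), Mmp15 (0.12), Mmp2 (0.70), Mmp23 (0.44), Timp2 (0.21) and Timp3 (0.77). Against the cKO it turned 5: Adamts17 (0.32), Adamts7 (0.44), Mmp11 (0.52), Mmp15 (0.10) and Timp2 (0.67). The turns follow from subtracting the stroma median. Summed levels moved with the denominator. Without the 20 most abundant genes MMPs were 2751, 1439.5 and 799 CPM, ADAMTS proteases 1648, 1224 and 374, and TIMPs 1115, 709.6 and 312 in the control, cKO and dTF-cKO. Without epidermis, muscle, osteoblast, keratin and globin genes the control and cKO stood at 2394 and 1233 for MMPs, 1435 and 1049 for ADAMTS proteases, and 971 and 608 for TIMPs. With library totals the cKO stood at 1135, 965 and 559. Families were ordered control, cKO, dTF-cKO in each of these settings. With the stroma scaling, added for sums after the data were seen, the summed MMPs, ADAMTS proteases and TIMPs lay at -1.22, -0.71 and -0.94 (log2) in the cKO, turned to 0.40, 0.05 and 0.35 in the dTF-cKO, and turned to 1.18, 0.32 and 0.84 between the Cre-carrying libraries. Depth limits members with under 10 counts.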
